A study of Rattus norvegicus with 23 samples.

Results

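Genes of the STAT3 axis and of inflammatory adhesion, 6 in number, were followed in adult female rat hippocampal neural stem cells, wild type, on soft and stiff substrates. They are 6 of the 32883 Ensembl rat gene identifiers counted, chosen by name: Stat3 (ENSRNOG00000019742), Socs3 (ENSRNOG00000002946), Ccl2 (ENSRNOG00000007159), Icam1 (ENSRNOG00000020679), Vcam1 (ENSRNOG00000014333) and Lcn2 (ENSRNOG00000013973). The choice was made with earlier results of these data known. The symbols follow the pairing with identifiers by which the genes were chosen. Neither the count table nor the reference table used here pairs identifiers with symbols, so the pairing was not checked. Of the 6, 4 had at least 10 counts in at least 2 libraries and were tested, each with at least 10 counts in all 23 libraries. Icam1 and Lcn2 did not reach that level and are described by their counts.

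The study asked which genes depend on substrate stiffness. Mixed differentiation medium, which is DMEM-F12 with N2, 1 uM retinoic acid and 1% FBS, is listed for all groups. Libraries of 3' end tags were made from each substrate at 0, 12, 24 and 36 h. No group was kept without this medium at the later times. In changes from 0 h, time and the medium therefore cannot be told apart. Each of the 8 groups had 3 libraries, except soft at 12 h, which had 2. The sources used here give neither the stiffness of the substrates in units of pressure nor whether replicates were separate cultures or animals. P-values therefore reflect the spread among these libraries alone, and that spread may be technical. The marker genes of neural stem cells could not be looked up without symbols, so the labelled cell type was not checked.

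Cytokines of the interleukin-6 family act through a shared receptor subunit and its kinases to phosphorylate STAT3, a transcription factor that enters the nucleus and switches on target genes. Socs3 is one of those targets and encodes an inhibitor that binds the receptor complex, which closes a feedback loop. In neural stem cells this pathway is best known for favouring astrocyte formation. Ccl2, Icam1, Vcam1 and Lcn2 are textbook targets of inflammatory signalling, largely through NF-kB: Ccl2 is a chemokine that attracts monocytes, Icam1 and Vcam1 are cell surface receptors for leukocyte integrins, and Lcn2 is a secreted protein that binds iron-carrying siderophores and marks reactive astrocytes.

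Library totals lay between 2462360 and 6811157 counts. At 12 h totals were 5428086 to 6519349 on soft but 2462360 to 4803755 on stiff, so depth and substrate ran together at that time. The part of depth in the 12 h differences below was not tested. Levels are given in CPM, which are counts relative to the scaled library total. "Called" means an adjusted p (Benjamini-Hochberg, over the 11857 genes tested) under 0.05 in edgeR's quasi-likelihood test.

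The sequence just upstream of Vcam1 is shown because it holds a match to the NF-kB consensus. RefSeq windows before the transcription start were found for 5 of the 6 symbols, and Ccl2 had none. Of these 5, the windows of Socs3, Icam1, Stat3 and Lcn2 had 250, 157, 154 and 71 of their 250 bases inside the listed span of their own gene. Only the window of Vcam1 lay outside the span of its gene. It is on chromosome 2, minus strand, build GRCr8, at chr2:206742784-206743033, next to the gene at 206723050 to 206742783, and runs 5′ to 3′ with the NF-kB match in capitals.
Vcam1 upstream window: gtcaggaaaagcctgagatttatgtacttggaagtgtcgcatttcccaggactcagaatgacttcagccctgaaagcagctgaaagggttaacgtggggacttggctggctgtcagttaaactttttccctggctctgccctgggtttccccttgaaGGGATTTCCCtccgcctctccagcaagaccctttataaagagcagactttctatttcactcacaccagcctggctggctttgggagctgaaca

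The match in the Vcam1 window, GGGATTTCCC on the strand shown, lies 93 to 84 bases before the start, and its reverse complement fits the consensus as well. Windows of Socs3 and Lcn2 also held an NF-kB match, which 6.33% of all 33469 rat windows of 250 bases did on either strand. The STAT motif TTCNNNGAA, which reads the same on both strands, was found in the window of Icam1 among the 5 and in 7.67% of all windows. The Stat3 window held neither. A match is a description of the letters and not a bound site, and a link between matches and the levels below was not tested.

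Ccl2 had by far the widest course of the 4 tested genes. On soft it was at 6.27, 5.20 and 5.07 CPM at 0 h, at 84.6 and 107.9 CPM at 12 h (replicates 1 and 3), at 358.8, 329.5 and 221.8 CPM at 24 h, and at 149.0, 144.9 and 152.6 CPM at 36 h. On stiff the 3 libraries gave 8.78, 6.09 and 6.88 CPM at 0 h, 137.5, 177.2 and 139.4 CPM at 12 h, 250.6, 303.1 and 286.5 CPM at 24 h, and 183.9, 207.3 and 200.1 CPM at 36 h. Every library at 24 h lay above every library at the other 3 times, and every library at 0 h lay below them. The chemokine transcript was thus low but detected at the start, with 21 to 54 counts per library, and highest at 24 h.

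Averaged over substrates, Ccl2 rose 19-fold from 0 h to 12 h (log2 fold change 4.25, SE 0.13, adjusted p = 7.55e-23 by edgeR). From 12 h to 24 h it rose a further 2.42-fold (log2 fold change 1.27, SE 0.10, edgeR adjusted p = 1.66e-12). From 24 h to 36 h it fell by 0.77 on the log2 scale (SE 0.09, edgeR adjusted p = 8.42e-08), which left it 27.0-fold above 0 h (log2 fold change 4.75, SE 0.13, edgeR adjusted p = 2.62e-25). By p-value it ranked 11 among the 11857 genes in the first step and 99 in the last. The first 2 steps were upward in 5 of 5 pairs of libraries that share substrate and replicate number, and the last was downward in 6 of 6.

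**Figure D1:**
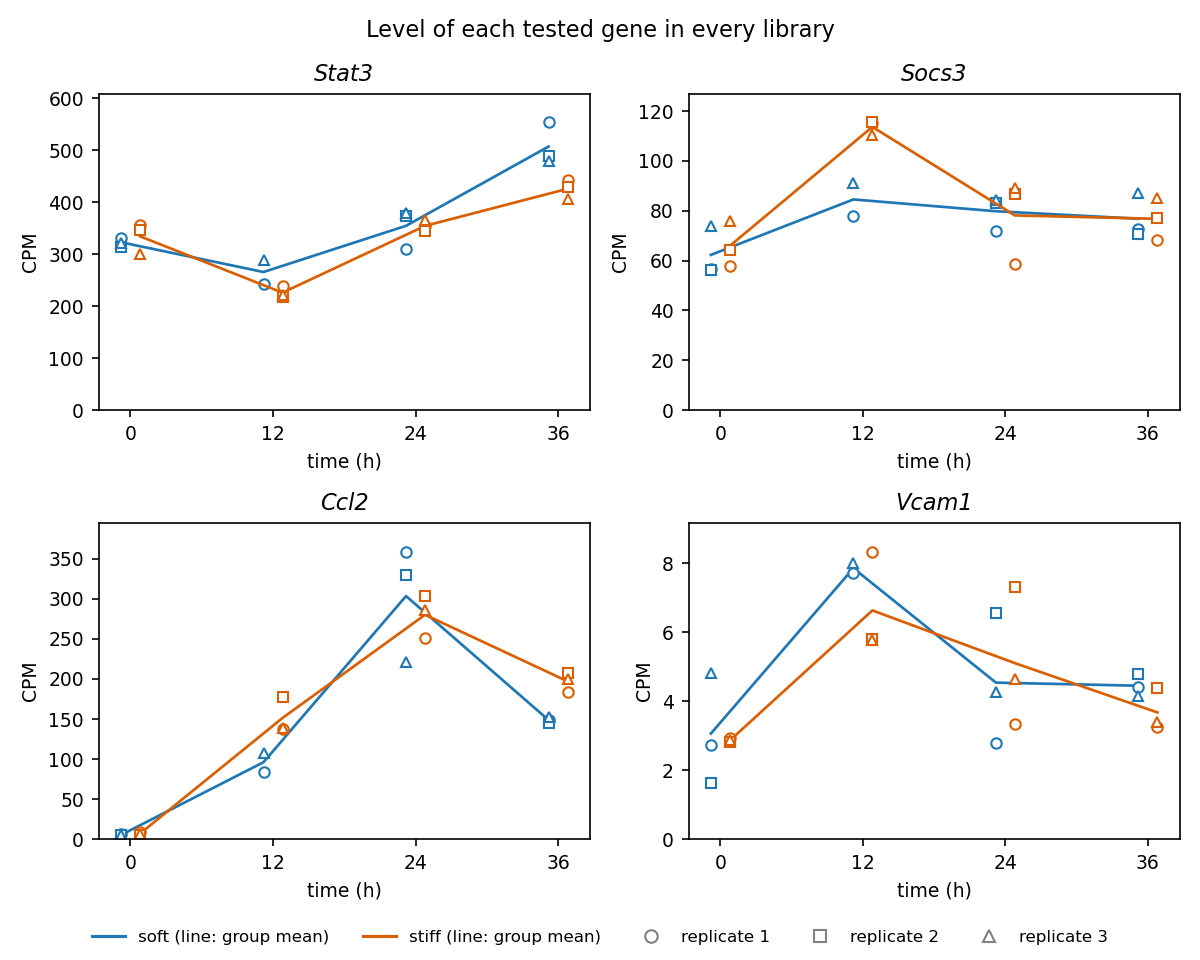
CPM (linear axes from 0) of Stat3, Socs3, Ccl2 and Vcam1 against time in hours, with 1 point per library, shaped by replicate number, and lines through the group means of the soft and stiff substrates. Ccl2 climbs from under 9 CPM at 0 h to 221.8 to 358.8 CPM at 24 h, Stat3 is lowest and Socs3 and Vcam1 are highest in mean level at 12 h on both substrates.

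Stat3, the transcription factor itself, moved less and in another order. On soft it was at 331.8, 314.8 and 322.4 CPM at 0 h, at 243.0 and 288.4 CPM at 12 h (replicates 1 and 3), at 310.7, 373.0 and 380.1 CPM at 24 h, and at 553.8, 488.2 and 479.3 CPM at 36 h. On stiff it was at 356.8, 345.7 and 300.8 CPM at 0 h, at 239.5, 217.0 and 221.5 CPM at 12 h, at 353.7, 344.0 and 365.6 CPM at 24 h, and at 442.5, 428.4 and 406.7 CPM at 36 h. All 5 libraries at 12 h lay below all others, and all 6 at 36 h lay above all others, while the ranges at 0 h and 24 h overlapped.

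In the averaged test Stat3 fell by 0.42 on the log2 scale in the first 12 h (SE 0.07, edgeR adjusted p = 5.11e-06). It rose by 0.53 to 24 h (SE 0.07, edgeR adjusted p = 6.02e-08) and by 0.39 more to 36 h (SE 0.06, edgeR adjusted p = 1.47e-05). At 36 h it stood 1.41-fold above 0 h (log2 fold change 0.50, SE 0.06, edgeR adjusted p = 1.33e-08). The spread of Stat3 between replicates was below the median, with a biological coefficient of variation of 7.58% against a median of 11.3% over all tested genes.

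Socs3, the feedback inhibitor, went up in the first 12 h, the step in which Stat3 went down. These are RNA levels, and the activity of the STAT3 protein was not measured. Soft libraries gave 56.8, 56.2 and 73.9 CPM at 0 h, 77.8 and 91.3 CPM at 12 h (replicates 1 and 3), 72.0, 83.3 and 84.2 CPM at 24 h, and 72.6, 70.6 and 87.2 CPM at 36 h. Stiff libraries gave 57.9, 64.2 and 75.7 CPM at 0 h, 115.3, 115.5 and 110.3 CPM at 12 h, 58.8, 86.6 and 89.0 CPM at 24 h, and 68.2, 77 and 85.2 CPM at 36 h. The 3 stiff libraries at 12 h lay above all other libraries, whereas the soft ones at 12 h overlapped with those at 24 h and 36 h.

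Averaged over substrates Socs3 rose 1.54-fold by 12 h (log2 fold change 0.62, SE 0.10, edgeR adjusted p = 7.41e-06). It then fell by 0.31 on the log2 scale to 24 h (SE 0.10, edgeR adjusted p = 0.00933). No change was called from 24 h to 36 h (log2 fold change -0.05, 95% interval -0.24 to 0.15, edgeR adjusted p = 0.790). The level at 36 h was 1.20-fold that at 0 h (log2 fold change 0.26, SE 0.10, edgeR adjusted p = 0.0193). This last call was lost without any 1 of 5 libraries, at adjusted p from 0.0527 to 0.0792: soft 0 h replicates 1 and 2, stiff 0 h replicate 1, and replicate 3 of either substrate at 36 h. The fall from 12 h to 24 h was lost without soft 12 h replicate 3 (edgeR adjusted p = 0.107).

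Vcam1, an adhesion receptor, had low counts, 10 to 51 counts per library. Its soft libraries held 14, 10 and 20 counts at 0 h (2.74, 1.62 and 4.83 CPM), 39 and 51 at 12 h (7.71 and 8.01 CPM), 14, 46 and 19 at 24 h (2.79, 6.56 and 4.28 CPM), and 15, 31 and 11 at 36 h (4.43, 4.78 and 4.15 CPM). Its stiff libraries held 18, 18 and 15 counts at 0 h (2.93, 2.81 and 2.87 CPM), 39, 14 and 17 at 12 h (8.34, 5.80 and 5.77 CPM), 22, 39 and 31 at 24 h (3.34, 7.32 and 4.66 CPM), and 13, 23 and 12 at 36 h (3.26, 4.38 and 3.40 CPM). All 5 libraries at 12 h exceeded all 6 at 0 h and all 6 at 36 h, and 2 of the libraries at 24 h, both of replicate 2, fell within the 12 h range. The replicate spread was wide, with a biological coefficient of variation of 21.6%.

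Vcam1 rose 2.5-fold in the first 12 h averaged over substrates (log2 fold change 1.32, SE 0.27, edgeR adjusted p = 0.000160). The later steps were not called, with log2 fold changes of -0.59 to 24 h (95% interval -1.10 to -0.08, edgeR adjusted p = 0.0516) and -0.24 from 24 h to 36 h (interval -0.76 to 0.28). From 0 h to 36 h it was 0.49 (interval -0.07 to 1.05, edgeR adjusted p = 0.112). The step to 24 h passed the threshold when either replicate 2 library of that time was left out, at log2 fold changes of -0.79 and -0.74 (edgeR adjusted p = 0.0145 and 0.0191), and without stiff 12 h replicate 3 at -0.64 (adjusted p = 0.0496). From 0 h to 36 h it passed without soft 0 h replicate 3, at 0.70 (edgeR adjusted p = 0.0302).

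Icam1, the other adhesion receptor, is listed at 0 in all 23 libraries. Over the 115097220 counts of all libraries together, a count of 0 allows up to 3 counts, or 0.0261 CPM, and in single libraries the same 3 counts correspond to 0.428 to 1.24 CPM. These limits cover counting error only. They concern reads assigned to the listed identifier, and whether tags from the gene's 3' end fall within the annotation used was not tested.

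Lcn2, the siderophore-binding protein, had 5 counts in all, in 3 of 23 libraries: 2 in soft 24 h replicate 2, 1 in soft 36 h replicate 2 and 2 in stiff 36 h replicate 1. It was at 0 in all libraries at 0 h and 12 h. Every library lay at or under the limit of 3 counts, so no difference was detectable at this depth and no fold is given. In these bulk libraries, fewer cells that express a gene and less of its RNA per cell cannot be told apart.

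In the first 12 h, all 4 tested genes were called, Socs3, Ccl2 and Vcam1 as risen and Stat3 as fallen, where 38.5% of all tested genes were called. Their median log2 fold change was 0.97, against 0.01 over all genes, whose median size of change regardless of sign was 0.27. From 12 h to 24 h, 3 of the 4 were called, against 46.3% of all genes, with Stat3 and Ccl2 risen and Socs3 fallen. From 24 h to 36 h, 2 of the 4 were called, against 19.9%, with Stat3 risen and Ccl2 fallen. Over the whole course 3 of 4 were called, all as risen, against 67.2% called in either direction and 34.2% called as risen. The median over these 36 h was 0.50 for the 4 genes and 0.02 for all genes, whose median size of change regardless of sign was 0.52. Because the genes were chosen with earlier results of these data known, these shares and medians are descriptions and not a test.

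Stiffness was tested at each time. Ccl2 was the one gene of the 4 called between substrates, and that only at 12 h, when it was 1.56-fold higher on stiff (log2 fold change 0.64, SE 0.15, edgeR adjusted p = 0.00513). The soft mean was 96.2 ± 16.5 CPM (SD, n = 2), the stiff mean 151 ± 22.4 CPM (SD, n = 3), and the 3 stiff libraries lay above both soft ones. At that time 6.6% of all tested genes were called and 5.36% were called as higher on stiff, so 1 of 4 genes was called where that share applied. Within replicate 1 the difference of log2 CPM was 0.70 and within replicate 3 it was 0.37. The call was lost without soft 12 h replicate 1 (log2 fold change 0.48, edgeR adjusted p = 0.146), a fit that takes the spread of the lone soft library from the other groups.

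**Figure D2:**
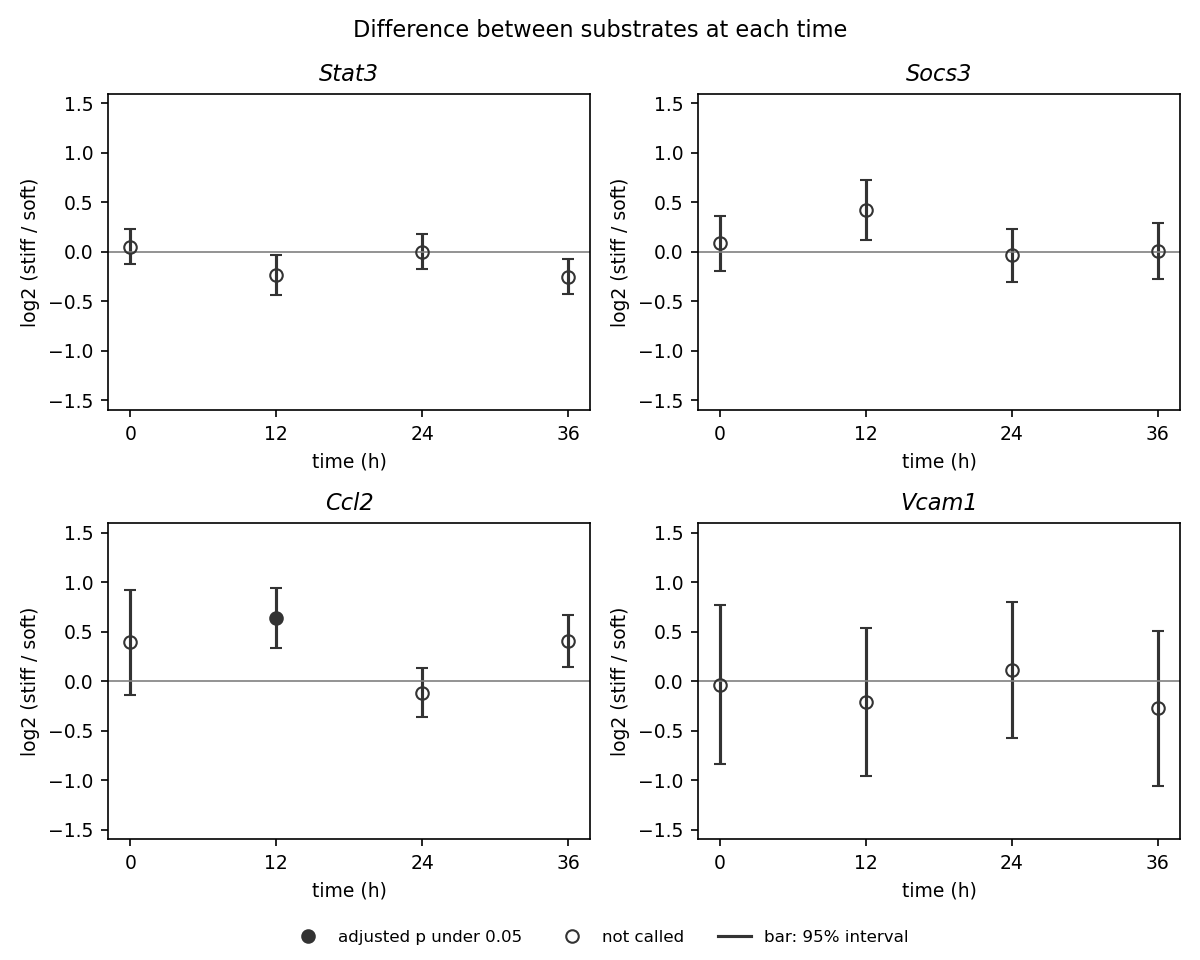
Log2 ratio of stiff to soft at 0, 12, 24 and 36 h for Stat3, Socs3, Ccl2 and Vcam1, from 1 edgeR fit to all 23 libraries, with bars for the 95% interval and filled points for adjusted p under 0.05. The filled point is Ccl2 at 12 h (0.64), and the intervals of Vcam1 are the widest at every time.

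At the other times Ccl2 was not called. At 0 h its level was 7.25 ± 1.38 CPM on stiff and 5.51 ± 0.659 on soft (SD, n = 3 each), with a log2 fold change of 0.39 (95% interval -0.14 to 0.92). The libraries overlapped, and stiff lay above soft by 0.46, 0.21 and 0.41 on the log2 scale within replicates 1, 2 and 3. At 24 h the means were 280 ± 26.8 and 303 ± 72.2 CPM (SD, n = 3 each), with overlapping libraries and a log2 fold change of -0.12 (interval -0.37 to 0.13). Within replicates 1, 2 and 3 the difference there was -0.52, -0.12 and 0.37. At 36 h the means were 197 ± 12.0 on stiff and 149 ± 3.83 CPM on soft (SD, n = 3 each). The 3 stiff libraries at 36 h lay above the 3 soft ones, by 0.30, 0.52 and 0.39 on the log2 scale within replicates 1, 2 and 3. With a log2 fold change of 0.41 (SE 0.13) and an unadjusted p of 0.00333, edgeR's adjusted p there was 0.319, at a time when 0.0675% of all tested genes were called. With no filter on low counts it passed (adjusted p = 0.0201).

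Stat3 was lower on stiff in mean level at 12 h and 36 h, without a call. At 12 h the soft mean was 266 ± 32.1 CPM (SD, n = 2) and the stiff mean 226 ± 11.9 CPM (SD, n = 3), and the libraries did not overlap (log2 fold change -0.23, SE 0.10, edgeR adjusted p = 0.179). At 36 h the soft mean was 507 ± 40.7 CPM and the stiff mean 426 ± 18 CPM (SD, n = 3 each), again without overlap (log2 fold change -0.25, SE 0.09, edgeR adjusted p = 0.433). The intervals were -0.43 to -0.03 and -0.43 to -0.07 before adjustment for the number of genes. At 0 h and 24 h the log2 fold changes were 0.05 (interval -0.13 to 0.23) and 0.00 (interval -0.18 to 0.18), and the libraries of both substrates overlapped.

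Socs3 at 12 h had a soft mean of 84.6 ± 9.49 CPM (SD, n = 2) and a stiff mean of 114 ± 2.97 CPM (SD, n = 3), with every stiff library above both soft ones. The log2 fold change was 0.42 (SE 0.15) and the call missed the threshold, at an edgeR adjusted p of 0.0838. Among other settings, it passed with only the 12 h groups fitted (0.45, adjusted p = 0.0122) and with no filter on low counts (0.41, adjusted p = 0.0341). At 0, 24 and 36 h the log2 fold changes of Socs3 were 0.09, -0.03 and 0.01, with intervals that reached from -0.30 to 0.36 at most. Those of Vcam1 ran from -0.27 at 36 h to 0.12 at 24 h, with intervals that together reached from -1.06 to 0.80. Over all genes 0% were called at 0 h and 0% at 24 h by edgeR. At these times 431 and 358 genes had an unadjusted p under 0.05, fewer than chance alone would give among all tested genes. At both times DESeq2 also called 0 genes.

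The first 12 h step was called on both substrates for all 4 tested genes, against 29.1% of all genes on soft and 21.5% on stiff. Stat3 fell by 0.28 on soft and by 0.56 on stiff on the log2 scale (SE 0.10 and 0.09, edgeR adjusted p = 0.0301 and 1.15e-05). Socs3 rose by 0.45 on soft and 0.79 on stiff (SE 0.15 and 0.13, edgeR adjusted p = 0.0208 and 3.64e-05). Ccl2 rose 17.4-fold on soft and 20.7-fold on stiff. Vcam1 rose 2.66-fold on soft and 2.36-fold on stiff (edgeR adjusted p = 0.00530 and 0.0138).

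On soft this step rested on few libraries. The fall of Stat3 was lost without soft 0 h replicate 1 or soft 12 h replicate 1, down to a log2 change of -0.16 (edgeR adjusted p = 0.363), and the rise of Socs3 without soft 0 h replicate 1 or 2 or soft 12 h replicate 3, down to 0.31 (adjusted p = 0.279). The call of Vcam1 was lost on soft without soft 0 h replicate 2 (edgeR adjusted p = 0.0515) and on stiff without stiff 12 h replicate 1 (adjusted p = 0.131). That of Ccl2 held on both substrates with each library left out in turn.

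The difference between the substrates in this first step was tested directly, and none of the 4 genes was called, where 1.87% of all tested genes were. Stiff minus soft, it was -0.28 for Stat3 (95% interval -0.55 to -0.01, edgeR adjusted p = 0.391), 0.34 for Socs3 (interval -0.07 to 0.75), 0.25 for Ccl2 (interval -0.37 to 0.87) and -0.18 for Vcam1 (interval -1.27 to 0.92). In the joint test of a stiffness effect that differed from 0 h at any later time, which called 3.31% of all genes, 0 of the 4 passed by edgeR, 2 had an unadjusted p under 0.05 (Stat3 at 0.0430 and Ccl2 at 0.00243), and DESeq2 called 1. Ccl2 came nearest in edgeR's fit, with an adjusted p of 0.0655. Among other settings, it passed by DESeq2 (adjusted p = 0.0430), with no filter on low counts (edgeR adjusted p = 0.000539) and without soft 24 h replicate 3 (0.00146).

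**Figure D3:**
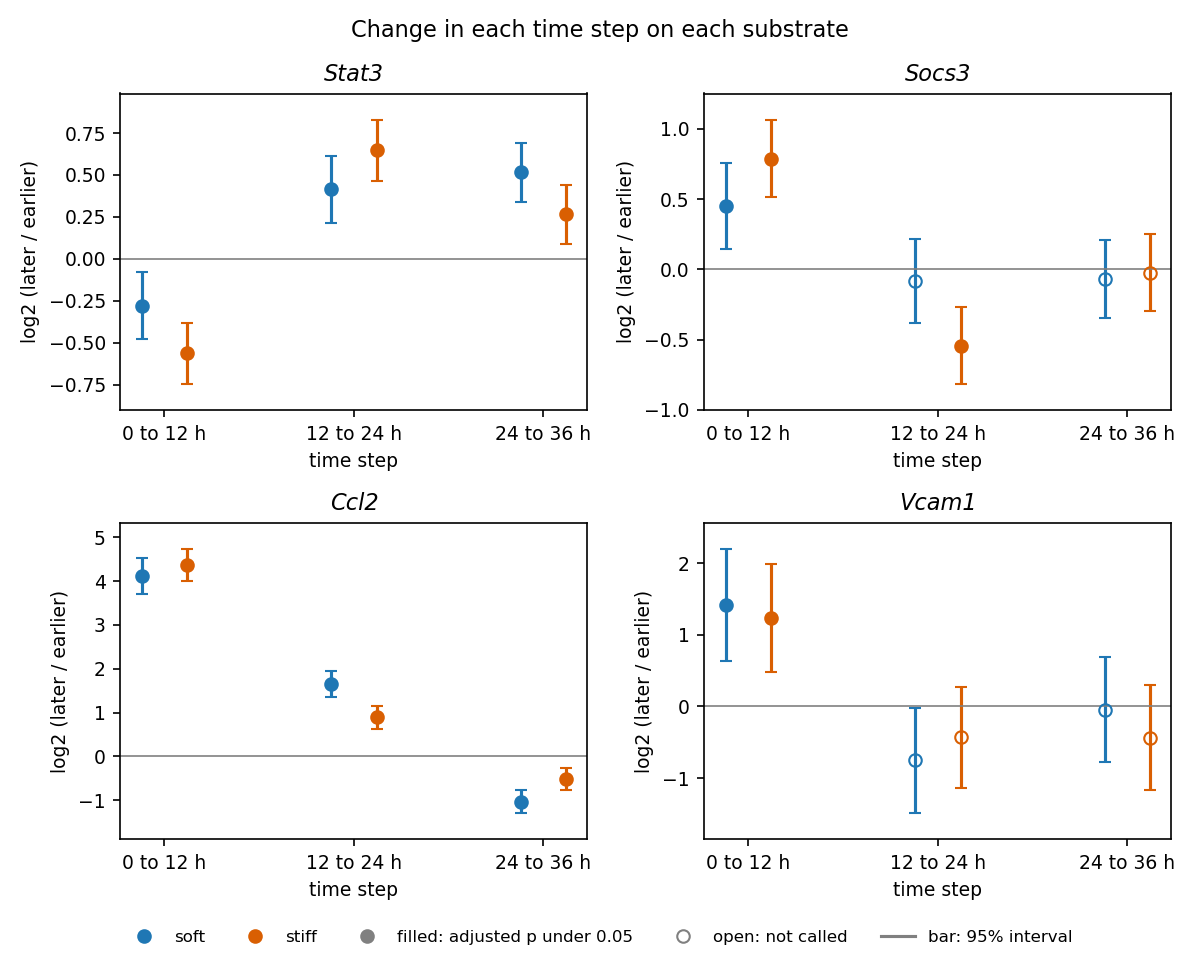
Log2 ratio of later to earlier time in the steps from 0 to 12 h, 12 to 24 h and 24 to 36 h, on soft and on stiff, for Stat3, Socs3, Ccl2 and Vcam1, with bars for the 95% interval and filled points for adjusted p under 0.05. Vertical scales differ between panels. Ccl2 rises by 1.65 on soft and 0.89 on stiff from 12 h to 24 h and falls on both substrates afterwards.

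Later steps within each substrate were compared after the data had been examined. From 12 h to 24 h Ccl2 rose 3.15-fold on soft and 1.86-fold on stiff (log2 fold changes 1.65 and 0.89, SE 0.15 and 0.13, edgeR adjusted p = 2.06e-10 and 1.57e-06). The step was smaller on stiff by 0.76 (95% interval -1.15 to -0.37, edgeR adjusted p = 0.0150). A difference in this step was called for 4.44% of all tested genes and one in the same direction for 3.85%. This comparison shares the 12 h libraries with the stiffness test at 12 h, and it lost its call without soft 12 h replicate 1 (log2 difference -0.60, adjusted p = 0.141) or without stiff 12 h replicate 2 (-0.66, adjusted p = 0.0645), the library with the lowest total.

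Socs3 fell by 0.54 on stiff from 12 h to 24 h (SE 0.13, edgeR adjusted p = 0.00192). On soft its change was -0.09 (95% interval -0.38 to 0.21), and the difference between the substrates was not called (-0.46, interval -0.86 to -0.05, edgeR adjusted p = 0.219). Stat3 rose by 0.42 on soft and 0.65 on stiff in the same step (SE 0.10 and 0.09, edgeR adjusted p = 0.00110 and 8.77e-07), and without soft 12 h replicate 1 the call on soft was lost (0.30, adjusted p = 0.0655). Vcam1 was not called on either substrate in this step, at -0.75 on soft (edgeR adjusted p = 0.0992) and -0.43 on stiff (adjusted p = 0.379). Without soft 24 h replicate 2 its change on soft was -1.16 (adjusted p = 0.0278). In this step 38.1% of all tested genes passed on soft and 30.6% on stiff.

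From 24 h to 36 h Ccl2 fell by 1.03 on soft and by 0.51 on stiff on the log2 scale (SE 0.13 and 0.12, edgeR adjusted p = 1.03e-06 and 0.00687), and Stat3 rose by 0.52 and 0.26 (SE 0.09 each, edgeR adjusted p = 0.000119 and 0.0470). The background was 9% of all tested genes on soft and 9.89% on stiff. On stiff the call of Ccl2 was lost without stiff 36 h replicate 1 or stiff 24 h replicate 2 (adjusted p = 0.0564 and 0.0541). That of Stat3 on stiff was lost without any 1 of the 6 stiff libraries at these times, or soft 36 h replicate 2 or 3, at adjusted p from 0.0506 to 0.178, with RLE size factors (0.0505) and with either other filter on low counts (0.0841 and 0.0535). The difference between substrates in this step was called for 0 genes (0%) by edgeR, with 439 genes at an unadjusted p under 0.05, among them Ccl2 at 0.53 (unadjusted p = 0.00557) and Stat3 at -0.25 (unadjusted p = 0.0493).

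Ordered by mean level over the 8 groups, Stat3 ran from stiff 12 h at the bottom through soft 12 h, soft 0 h, stiff 0 h, stiff 24 h, soft 24 h and stiff 36 h to soft 36 h. The 4 groups at 0 h and 24 h overlapped with their neighbours in this order, and the others did not. For Ccl2 the order was soft 0 h, stiff 0 h, soft 12 h, soft 36 h, stiff 12 h, stiff 36 h, stiff 24 h and soft 24 h. Neighbours overlapped in 3 places, between the substrates at 0 h, between those at 24 h, and between soft 36 h and stiff 12 h. For Socs3 all neighbours overlapped from soft 0 h up to soft 12 h, and stiff 12 h stood above. For Vcam1 every group overlapped with the next.

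The pattern most like that of Stat3 over the 8 group means of log2 CPM was found in ENSRNOG00000001700, with a Pearson r of 0.987. That identifier was at 2.78 ± 1.02 CPM on stiff at 12 h (SD, n = 3) and 9.91 ± 1.46 CPM on soft at 36 h (SD, n = 3), the same lowest and highest groups as Stat3. It was picked by this r, so the shared order is no separate result. For Socs3 the most similar pattern was that of ENSRNOG00000006803, with an r of 0.971, at 194 ± 6.26 CPM on soft at 0 h and 321 ± 2.72 CPM on stiff at 12 h (SD, n = 3 each). Over the 23 single libraries the r with these identifiers was 0.910 for Stat3 and 0.816 for Socs3. Over the group means an r above 0.9 was reached by 269 of the other 11856 genes for Stat3, 760 for Ccl2, 84 for Vcam1 and 13 for Socs3. These are descriptions over 8 points that share libraries and a time course. Between the members themselves the same r was -0.53 for Stat3 with Socs3, 0.80 for Socs3 with Vcam1, 0.62 for Socs3 with Ccl2 and 0.15 for Stat3 with Ccl2.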

How the data were processed

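Per the labels' protocols, RNA from cell pellets was made into QuantSeq FWD libraries, which tag the 3' ends of polyadenylated transcripts, so isoforms with a common 3' end share 1 count. FastQC, HISAT2 2.1.0, HTSeq and the build rn6 are listed in the submitters' processing notes. Annotation release, strand setting and duplicate handling are not given in the sources, so reads of overlapping or antisense genes cannot be told apart. The deposited values are raw counts per gene for each library, in whole numbers. Neither the 23 listed samples nor the columns of the count table include a soft 12 h library of replicate 2.

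All 23 libraries were fitted together with 1 mean per group in edgeR 4.0.16 (R 4.3.3), with TMM factors, filterByExpr (minimum count 10, minimum total 15) and quasi-likelihood F tests, and p-values were adjusted over 11857 genes. Standard errors were derived from F. CPM values use the TMM-scaled totals, and log2 CPM a prior count of 2. There were 12 comparisons, and 6 more were added after the data were examined (the later steps within a substrate and their differences). The members and lists were chosen with earlier results of these data known. The members were all named, and the genes of most similar pattern were those with the highest correlation over group means. With no symbols (0 of 32883 identifiers matched), identifiers of the genes of most similar pattern are printed for Stat3 and Socs3 only. For the same reason the pathway and marker lists fixed by symbol could not be used. Replicates differed by more than sampling noise (chi-square per degree of freedom 2.42 to 9.11). Alternatives were RLE factors, 2 other filters, DESeq2 1.42.0, a replicate block, a fit of the compared groups only, and leaving out libraries singly.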

Additional observations from a re-analysis of the deposited data

Results flagged for a closer look

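The rise of Ccl2 from 12 h to 24 h differed between the substrates by a test of the difference itself. Stiff minus soft, the log2 difference was -0.76 (edgeR quasi-likelihood adjusted p = 0.0150), with mean levels going from 96.2 to 303 CPM on soft and from 151 to 280 CPM on stiff. The comparison was added after the data were examined, and over its alternatives the adjusted p ran from 0.000147 to 0.141.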

How the results depend on the processing

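The calls of the first 12 h step averaged over substrates held for all 4 tested genes under every alternative run. Of the 4 genes, the number called between substrates at 12 h was 1 and became 2 with no filter on low counts, 2 with the replicate number as a block and 2 with the 12 h groups fitted alone. At 36 h it went from 0 to 1 with no filter. In the joint test it went from 0 to 1 with no filter, 1 with DESeq2 and 1 with the replicate block, and for the step from 24 h to 36 h on stiff from 2 to 1 with RLE factors, 1 with no filter and 1 with at least 5 CPM in 3 libraries. With single libraries left out it ran from 0 to 1 for stiff against soft at 12 h, for the joint test and for the difference of the 12 h to 24 h step, from 1 to 3 for that step on soft, and from 0 to 2 for the last step on stiff. The replicate block also brought a call for Vcam1 from 12 h to 24 h (-0.66, edgeR adjusted p = 0.0317) at 12 h for Socs3 (0.44, adjusted p = 0.0121) and in the joint test for Ccl2 (adjusted p = 0.0399), and ended no call of the 4 genes. The numbers follow the letters Rd in the sample titles, which no label explains. The main fit did not treat them as pairs, and differences within a number are given above as descriptions only. Same-numbered soft and stiff libraries of 1 time had deviations from their group means that correlated at -0.03 to 0.15. That was over 0.1 in 4 of 11 pairs, against 0 of 22 pairs of unlike number, and 19 of 22 libraries correlated best with their own number. Over all genes the block moved the calls at 36 h from 8 to 48, and no filter gave 97, DESeq2 40 and the 36 h groups alone 28. No filter gave 12 genes at 0 h, 8 at 24 h and 674 against 393 in the joint test, and for the difference of the last step 14 against 0, where the block gave 2. Leaving out 1 library gave 336 to 672 genes at 12 h, against 782, and 1 to 13 at 36 h. The counts without soft 12 h replicate 3 were those 336 genes, 160 in the joint test, 2150 against 3455 for the first step on soft, 87 against 222 for the difference in that step and 279 against 526 for the difference in the second. Leaving out stiff 12 h replicate 2 gave 502 genes at 12 h, stiff 0 h replicate 1 gave 142 for the difference in the first step, soft 36 h replicate 1 gave 667 against 1067 for the last step on soft, and stiff 36 h replicate 1 gave 540 and stiff 24 h replicate 2 gave 600 against 1173 for the last step on stiff. The cause was not tested.

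Signs changed only among differences that were not called. Stat3 at 24 h went from -0.000665 to 0.00959 with no filter and to 0.00172 with the 24 h groups alone. With libraries left out in turn, stiff minus soft ran at 0 h from -0.0222 to 0.21 for Socs3 and -0.37 to 0.41 for Vcam1. At 24 h it ran from -0.0853 to 0.0507 for Stat3, -0.14 to 0.14 for Socs3, -0.30 to 0.0189 for Ccl2 and -0.22 to 0.52 for Vcam1, and at 36 h from -0.0665 to 0.10 for Socs3. The change of Socs3 from 24 h to 36 h ran from -0.13 to 0.00242 averaged and -0.20 to 0.0753 on stiff, its 12 h to 24 h change on soft from -0.19 to 0.0602, and its difference in the last step from -0.13 to 0.15. For Vcam1 the last step on soft ran from -0.30 to 0.36, the difference in the first step from -0.60 to 0.16 and that in the second from -0.0276 to 0.73. The cause was not tested. Low counts limit Vcam1 and Lcn2, and the 12 h comparisons rest on 2 soft libraries.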
